A study of Mus musculus with 6 samples.

Results

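MHC class II high monocyte-derived cells are the 748 cells that carried the most MHC class II RNA among 4986 monocyte-derived cells of the inflamed mouse spinal cord, out of 9078 cells kept in the whole series. They were chosen in 2 steps from the 4 libraries of mice with experimental autoimmune encephalomyelitis (EAE). A gate first took cells with at least 10 UMIs, the counts of single captured RNA molecules, from the monocyte genes Ccr2, Ly6c2, Fn1, F10, Tgfbi, S100a4 and Plac8 together. The same gate allowed at most 2 UMIs from the microglial genes Tmem119, P2ry12, Siglech, Sparc and Olfml3, and fewer than 5 from the dendritic cell genes Flt3, Cd209a, Ccr7, Ccl22 and Ccl17. Each gated cell then received a score, the mean over H2-Aa, H2-Ab1, H2-Eb1 and Cd74 of the natural log of 1 plus counts per 10000. The top 15% of the pooled gated cells were kept and are called class II high cells, and the remaining 4238 cells are called other gated cells. The choice used the levels of these 21 genes, so their values are given as a description with no test.

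The series profiled spinal cord cells carrying the myeloid surface protein CD11b from C57BL/6 mice, 10 weeks old. Live cells had been stained with 10 uM DCFDA, which turns green once oxidised inside the cell, and the sort separated cells with (ROS+) and without (ROS-) a high signal of reactive oxygen species. All cells described here came from mice at the onset of EAE, a model of multiple sclerosis in which T cells attack myelin, in 2 EAE ROS+ libraries and 2 EAE ROS- libraries. In the 2 healthy ROS- libraries, of 1755 and 202 cells, 0 cells passed the gate. Whether 2 libraries of a gate, or a ROS+ and a ROS- library, share mice is not given in the labels. Every p-value therefore measures only the spread between these samples, which may be technical.

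MHC class II molecules are pairs of an alpha and a beta chain that show fragments of engulfed protein to CD4 T cells. In C57BL/6 mice H2-Aa and H2-Ab1 encode the chains of I-A, and Cd74 encodes the invariant chain that escorts new class II molecules from the endoplasmic reticulum and blocks their groove. H2-DM then exchanges the last fragment of Cd74 for a peptide, H2-DO restrains H2-DM, and the coactivator Ciita promotes the transcription of class II genes. Monocytes entering the inflamed cord leave the blood with Ly6c2 and Ccr2 RNA and can acquire class II molecules there, and in EAE such cells can restimulate the T cells that drive the disease.

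The class II high cells formed the upper end of a continuous range and did not stand apart as a separate peak. The score at which the top 15% began was 4.83, and 133 members lay within 0.05 above it while 144 other gated cells lay within 0.05 below it. The cell counted as the 20th inside scored 4.84 and the 20th outside scored 4.82. The UMIs of each cell were also split at random into 2 equal parts, and the score was computed again from 1 part. Of 748 members 681 (91.0%) were chosen again. That part is contained in the full counts, so both choices share UMIs and the overlap does not measure independent repetition. In the class II high cells the 4 scored genes took a median of 6.51% and 6.50% of all UMIs in EAE ROS+ replicates 1 and 2, and 6.82% and 6.73% in EAE ROS- replicates 1 and 2. Among other gated cells they took 4.00% and 1.41% in the EAE ROS+ libraries, and 4.42% and 3.11% in the EAE ROS- libraries. The class II high cells of the 4 libraries were nearly equal in class II RNA, which the shared threshold brings about. The cells they are set against were not: a score below 3 was found in 6.44% and 47.6% of the other gated cells of EAE ROS+, and in 5.02% and 23.8% of those of EAE ROS-.

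**Figure D1:**
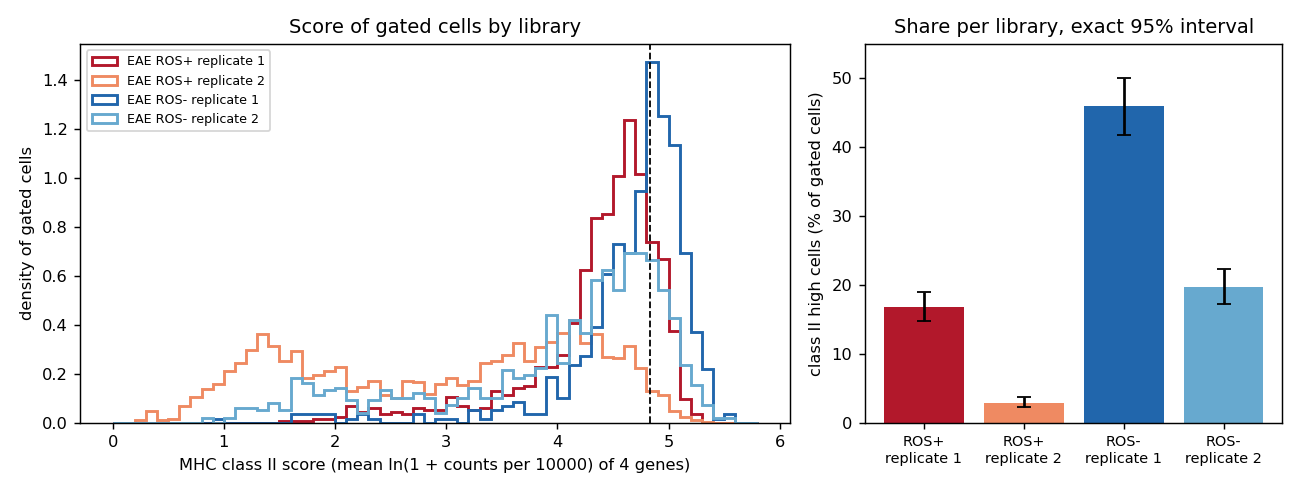
Left, the distribution of the MHC class II score (mean natural log of 1 plus counts per 10000 over 4 genes; the y axis is density) in the gated cells of each EAE library, with the dashed line at the score of 4.83 that separates class II high from other gated cells. Right, class II high cells as a percentage of gated cells per library, with exact 95% intervals that cover counting error; EAE ROS+ replicate 2 has a broad low peak of scores and the lowest share, 2.92%.

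Class II high cells made up a smaller share of the gated cells in both EAE ROS+ libraries than in either EAE ROS- library. There were 223 of 1326 gated cells (16.8%, exact Clopper-Pearson 95% interval 14.8% to 18.9%) and 61 of 2092 (2.92%, 2.24% to 3.73%) in EAE ROS+ replicates 1 and 2. In EAE ROS- replicates 1 and 2 there were 271 of 590 (45.9%, 41.9% to 50.0%) and 193 of 978 (19.7%, 17.3% to 22.4%). The interval of EAE ROS+ replicate 1 overlaps that of EAE ROS- replicate 2, and these intervals cover counting error only. The mean share was 9.87% ± 9.83 in EAE ROS+ and 32.8% ± 18.5 in EAE ROS- libraries (SD, n = 2 each), a difference of -23.0 percentage points. An exact two-sided permutation test gave p = 0.333, the smallest that 2 against 2 libraries allow, so the difference cannot be called. It was -9.87 points once EAE ROS- replicate 1 was left out and reached -36.1 points with EAE ROS- replicate 2 left out. Thinning every cell to 2000 UMIs before scoring, which left out no gated cell, gave -23.6 points.

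The libraries differed in depth and in traces of other cells, and these values stand beside all that follows. Class II high cells had a median of 8261 and 5591 UMIs per cell in EAE ROS+ and 7123 and 6188 in EAE ROS-, against 9013 and 5386, and 7372 and 6551, for other gated cells of the same libraries. Summed UMIs of the class II high cells ran from 383846 in EAE ROS+ replicate 2 to 2016851 in EAE ROS+ replicate 1. A dendritic cell gene of the gate was present, below the limit, in 1.79% and 0% of EAE ROS+ and in 18.1% and 15.03% of EAE ROS- class II high cells, against 0.997% and 2.07%, and 17.2% and 13.8%, of other gated cells. A UMI of the T and NK cell genes Cd3e, Cd3g, Cd3d, Nkg7, Gzma or Ifng was present in 0.448% and 0% of EAE ROS+ and in 11.8% and 4.15% of EAE ROS- class II high cells, against 0.635% and 0.591%, and 11.9% and 5.99%, of other gated cells. As shares of cells, both traces differed more between the ROS gates than between class II high and other gated cells of one library. A longer list of 16 T and NK cell markers, which includes Il7r, was summed in UMIs per 1000000 of the TMM-scaled total. The sums were 71.7 and 73.0 in EAE ROS+ and 94.2 and 119.5 in EAE ROS- class II high cells. In other gated cells they were 79.8 and 45.1, and 580.0 and 181.5. Most of the class II high sums was Il7r. Scaled over class II high cells alone, Il7r was at 69.1 and 71.3 in EAE ROS+ and at 72.3 and 111.5 in EAE ROS-. Of all barcodes of the EAE libraries, gated or not, 28 occurred in more than 1 EAE library, including those of 7 members, and they were kept. No doublet caller was run, and leaving out the tenth of cells with the most UMIs was tried in its place.

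The class II genes that were scored set the scale of the contrast, as a description. H2-Eb1, the beta chain of I-E, stood at 7875, 7400, 8763 and 8328 CPM in class II high cells of EAE ROS+ replicates 1 and 2 and EAE ROS- replicates 1 and 2, an order kept below, against 3936, 1531, 4192 and 2675 CPM in other gated cells (CPM are UMIs per 1000000 of the TMM-scaled total over the cells of a group in a library). H2-Aa stood at 11670, 10880, 12210 and 11480 CPM in class II high cells, against 6491, 2832, 6661 and 4516 CPM in other gated cells. Across the 4 libraries the class II high cells spanned narrow ranges, as the shared threshold brings about, and the other gated cells wide ones. The fitted log2 differences were 1.49 for H2-Eb1, 1.25 for H2-Aa, 1.21 for H2-Ab1 and 1.01 for Cd74. Since part of such a difference is the noise that put a cell above the threshold, the members were also chosen on one part of the UMIs, split at random, and measured on the other part, which gave 1.41, 1.19, 1.16 and 0.97. Against only those other gated cells that scored above the median of 4.20, the 4 differences were 0.86, 0.68, 0.66 and 0.54.

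Ccl5 and Spink2 had been put forward with the class II genes as markers of these cells. Of the 2, Ccl5 was the one that stood higher than in other gated cells in all 4 libraries. Ccl5, a chemokine that draws T cells and monocytes, stood at 6623, 3122, 5565 and 4379 CPM in class II high cells, against 4370, 1658, 3365 and 2676 CPM in other gated cells, a fold of 1.66. Spink2, a serine protease inhibitor, stood at 74.4, 33.9, 65.0 and 41.7 CPM in class II high cells, against 55.6, 36.1, 57.2 and 38.2 CPM in other gated cells. Its fold was 1.19, and the order was reversed in EAE ROS+ replicate 2. Cells with 10 or more UMIs of the microglial genes and at most 2 of the monocyte genes were set beside them. In EAE ROS- replicates 1 and 2 these cells had 2.91 and 0 unscaled CPM of Spink2. Spink2 RNA was thus present at similar levels in class II high and other gated cells. Of the gate genes, Ccr2 was alike in both (mean 327 ± 67.1 CPM in class II high cells and 327 ± 79.7 CPM in other gated cells, SD, n = 4 libraries). S100a4 was at 69.1, 107, 140 and 81.0 CPM in class II high cells, against 137, 298, 217 and 225 CPM in other gated cells. The fitted differences of Ly6c2 and Fn1 were -0.43 and -0.39.

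For every other gene the sums of class II high and other gated cells were compared within libraries (edgeR quasi-likelihood test with the library as a block, Benjamini-Hochberg adjusted p under 0.05). The members were chosen on their own RNA, so a gene that varies with class II RNA from cell to cell differs here by that choice, and the test asks whether the difference repeats over the 4 libraries. Of 8726 genes tested, 138 (1.58%) were called, 75 higher (0.86%) and 63 lower (0.722%) in class II high cells. Of these, 8 were genes of the rule or proposed markers, which left 70 higher and 60 lower, and the median log2 difference over all genes was 0.0003. Leaving out 1 EAE ROS+ library gave a count of 75 (replicate 1) or 215 (replicate 2), and leaving out 1 EAE ROS- library gave 133 (replicate 1) or 39 (replicate 2). With members chosen on one part of the split UMIs and values taken from the other, 67 of 7043 genes were called, all of them among the 138. Of 60 named calls of this comparison, 18 held under every alternative that kept the library block. Genes named for the size of their difference had to have all 4 libraries on the same side, so that count is no support for them. The losses given below are those without a library and others that bear on a gene, and are not a full list.

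More genes of the class II machinery were higher together with the scored genes. Of 13 genes for class II peptide loading and processing 11 were tested, and 6 were higher, 0 lower and 5 not called, with a median log2 difference of 0.36. H2-Oa, the alpha chain of the H2-DM inhibitor H2-DO, was at 43.6, 33.9, 198 and 62.9 CPM in class II high cells, against 24.8, 13.3, 82.2 and 25.8 CPM in other gated cells. It was higher in 4 of 4 libraries, at 2.22-fold (log2 1.15 ± 0.11 SE, adjusted p = 5.91e-06). H2-DMb2, a beta chain of H2-DM, was at 30.8, 49.5, 216 and 86.5 CPM in class II high cells, against 24.2, 17.4, 97.7 and 27.2 CPM in other gated cells, at 2.18-fold (log2 1.12 ± 0.15, adjusted p = 0.00027). The difference was there in every library, although EAE ROS- replicate 1 carried more H2-Oa and H2-DMb2 RNA than the others in both kinds of cell.

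H2-DMb1, the other beta chain gene of H2-DM, and H2-DMa, its alpha chain, were expressed much more evenly. H2-DMb1 was at 1075, 1074, 1164 and 1098 CPM in class II high cells, against 764, 531, 825 and 673 CPM in other gated cells (1.59-fold, adjusted p = 5.67e-05). H2-DMa averaged 1178 ± 101 CPM in class II high cells and 831 ± 97.2 CPM in other gated cells (SD, n = 4), at 1.42-fold (adjusted p = 9.01e-05). The groups of class II high and other gated values did not overlap for either gene. H2-DMb1 and H2-DMb2 are close copies, and reads they share could be split between them by the counting. The remaining called members, named after their values were seen, were Ifi30, a thiol reductase that opens disulfide bonds of antigens (1.28-fold, adjusted p = 0.00449), and H2-Ob, the beta chain of H2-DO (2.11-fold, adjusted p = 0.037). Ifi30 was not called without EAE ROS+ replicate 1 (log2 0.31), and H2-Ob, with 6, 1, 59 and 22 UMIs in class II high cells, was not called without EAE ROS+ replicate 1 (1.18) or EAE ROS- replicate 1 (1.27). Ctss, the protease that cuts the invariant chain, also named after its value was seen, was not called, with 6912 ± 1043 CPM in class II high cells and 6200 ± 661 CPM in other gated cells (SD, n = 4, adjusted p = 0.283).

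Ciita, the class II coactivator, was the called gene among 8 tested class II regulators. It stood at 42.5, 28.7, 49.6 and 42.5 CPM in class II high cells, against 28.8, 20.7, 31.4 and 23.8 CPM in other gated cells, higher in 4 of 4 libraries at 1.57-fold (log2 0.65 ± 0.12, adjusted p = 0.00687). The DNA-binding partners it needs were not called: Rfx5 was at 10.9 ± 2.65 CPM in class II high cells and 7.95 ± 1.08 CPM in other gated cells (adjusted p = 0.393), and the list had a median log2 difference of 0.09. Ciita was no longer called without EAE ROS+ replicate 1 (log2 0.69) or without EAE ROS- replicate 2 (0.58), nor when members were chosen and measured on separate parts of the split UMIs (0.64), nor against other gated cells above the median score (0.43).

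**Figure D2:**
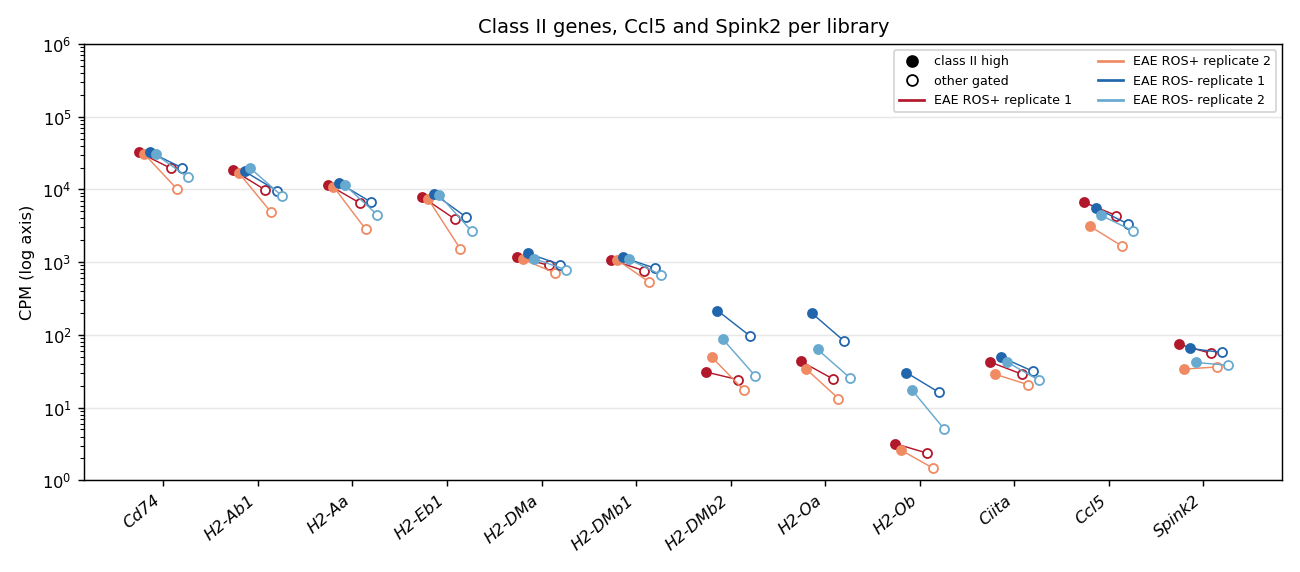
CPM (log axis) of class II genes, Ciita, Ccl5 and Spink2 in class II high cells (filled) and other gated cells (open) of each EAE library, joined by a line per library. All lines fall from filled to open except that of Spink2 in EAE ROS+ replicate 2; H2-DMb2, H2-Oa and H2-Ob are highest in EAE ROS- replicate 1.

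The genes that were higher together lie close to each other in the class II region of chromosome 17, with Ciita apart on chromosome 16 (10480014 to 10531064, GRCm38). H2-Oa spans 34092379 to 34095234, H2-DMa 34119693 to 34139101, H2-DMb2 34143229 to 34151553 and H2-DMb1 34153191 to 34160229. They are followed by H2-Ob at 34238905 to 34245908, H2-Ab1 at 34263227 to 34269418, H2-Aa at 34282744 to 34287823 and H2-Eb1 at 34305867 to 34316674. Class II promoters are known for an X box, bound by the RFX complex, an X2 box, bound by factors of the CREB family, and a Y box, bound by NF-Y, to which Ciita docks without touching DNA. Stretches of 60 bases from 6 promoters are printed because they share such letters upstream of the start, with matches in capitals, 5′ to 3′ on the strand of the gene.
H2-Aa, chr17:34287859-34287918, minus strand: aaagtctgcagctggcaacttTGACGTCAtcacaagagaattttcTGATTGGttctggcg
H2-Eb1, chr17:34305761-34305820, plus strand: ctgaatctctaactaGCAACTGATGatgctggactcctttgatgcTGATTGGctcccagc
H2-DMb1, chr17:34153083-34153142, plus strand: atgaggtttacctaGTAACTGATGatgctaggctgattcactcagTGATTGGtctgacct
H2-DMb2, chr17:34145112-34145171, plus strand: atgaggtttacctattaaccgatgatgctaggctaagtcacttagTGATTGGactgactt
H2-Oa, chr17:34092289-34092348, plus strand: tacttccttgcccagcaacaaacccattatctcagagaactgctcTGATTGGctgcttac
H2-Ob, chr17:34238801-34238860, plus strand: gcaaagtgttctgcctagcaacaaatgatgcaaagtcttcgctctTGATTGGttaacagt

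These are sequences of RefSeq on GRCm38.p6, and the letters were chosen after the sequences had been read. Capitals mark TGATTGG of the Y box, found at -50 in H2-Aa, -61 in H2-Eb1, -63 in H2-DMb1, -92 in H2-DMb2, -45 in H2-Oa and -59 in H2-Ob, counted from the annotated start site. They also mark GNAACTGATG of the X box in H2-Eb1 and H2-DMb1, and TGACGTCA of the X2 box in H2-Aa, which do not overlap the Y box. Searched on both strands, TGATTGG was present in 7.82%, GNAACTGATG in 0.335% and TGACGTCA in 1.79% of 32851 promoter windows of 300 bases. None of these letters was in either window of H2-DMa, and no window of H2-Ab1 or Ciita was read. A match is a run of letters and was not tested as a binding site.

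Outside the class II lists, genes for the receptors Procr, Tnfrsf9 and Itgax and for the chaperone Hspa5 were higher in all 4 libraries, a condition of their being named. Procr, the endothelial protein C receptor, was at 79.1, 141, 102 and 114 CPM in class II high cells, against 45.7, 47.6, 51.6 and 85.8 CPM in other gated cells (1.79-fold, adjusted p = 0.000939). Tnfrsf9, which encodes the costimulatory receptor 4-1BB, was at 37.2, 107, 25.6 and 127 CPM in class II high cells, against 18.2, 47.0, 19.5 and 75.7 CPM in other gated cells (1.81-fold, adjusted p = 0.000519). For both genes class II high cells were above other gated cells in every library, although the libraries themselves differed widely in Tnfrsf9. Itgax, which encodes the integrin CD11c of dendritic cells and many macrophages, averaged 53.2 ± 20.3 CPM in class II high cells and 34.1 ± 14.1 CPM in other gated cells (SD, n = 4; 1.57-fold, adjusted p = 0.00411). Itgax was not called without EAE ROS- replicate 2 (log2 0.70), on separate parts of the split UMIs (0.59) or against other gated cells above the median score (0.45).

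Hspa5, the chaperone BiP, was at 414, 743, 389 and 871 CPM in class II high cells, against 281, 354, 316 and 559 CPM in other gated cells (1.55-fold, adjusted p = 0.000509). Pdia6, a disulfide isomerase, was at 327, 451, 314 and 507 CPM in class II high cells, against 215, 227, 224 and 350 CPM in other gated cells (1.55-fold, adjusted p = 0.000142). Both genes were higher in 4 of 4 libraries and highest in replicate 2 of each ROS gate. Sdf2l1 and Creld2, also proteins of the endoplasmic reticulum, were 1.61-fold and 1.56-fold higher (adjusted p = 0.0021 and 0.0048), and neither was called without EAE ROS- replicate 2 (log2 0.65 and 0.61), nor Creld2 on separate parts of the split UMIs (0.56). These genes were named for the size of their difference, and no list of endoplasmic reticulum genes was counted. Of 19 tested genes for class I presentation 4 were higher, 0 lower and 15 not called, with a median log2 difference of 0.13 and all 19 above 0. The called ones were the chaperones Pdia3 (1.40-fold, adjusted p = 0.00129) and Calr (1.33-fold, adjusted p = 0.0221) and the class I genes H2-Q4 and H2-Q7, close copies of each other. None of these 4 was called without EAE ROS- replicate 2, with log2 differences of 0.46, 0.45, 0.34 and 0.30, and Calr, H2-Q4 and H2-Q7 were also not called without EAE ROS+ replicate 1 (0.42, 0.32 and 0.29).

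Among costimulatory and checkpoint genes 15 were tested, and 1 was higher, 0 lower and 14 not called, with a median of 0.20. The called one was Slamf7, a receptor of lymphocytes and activated macrophages (1.40-fold, adjusted p = 0.0306), and its call was lost without EAE ROS+ replicate 1 (log2 0.49) or EAE ROS- replicate 2 (0.52). Cd86, the main partner of CD28, was at 172, 107, 210 and 157 CPM in class II high cells, against 128, 146, 153 and 155 CPM in other gated cells. The order was reversed in EAE ROS+ replicate 2, and the adjusted p was 0.494. Cd80 and Cd40 were not called either, with log2 differences of 0.20 (adjusted p = 0.788) and 0.25 (0.27).

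Genes that dendritic cells share with their monocyte-derived relatives were partly higher. Of 28 such genes outside the gate 14 were tested, and 4 were higher, 0 lower and 10 not called, with a median log2 difference of 0.40. Syngr2, a synaptogyrin of vesicle membranes, was at 311, 292, 532 and 440 CPM in class II high cells, against 238, 205, 306 and 273 CPM in other gated cells (1.52-fold, adjusted p = 0.000175). Plbd1, a lysosomal phospholipase, Cst3, the protease inhibitor cystatin C, and Ifitm1, a membrane protein induced by interferon, were 1.40-fold, 1.25-fold and 1.62-fold higher (adjusted p = 0.000939, 0.00815 and 0.00501). Without EAE ROS- replicate 2 they were not called, at log2 0.45, 0.35 and 0.52. Cst3 was also not called without EAE ROS+ replicate 1 (0.35) or EAE ROS- replicate 1 (0.28), and Ifitm1 was not called without EAE ROS+ replicate 1 (0.74). In EAE ROS+ replicate 2 the order of Ifitm1 was reversed, with a log2 difference of -0.118. Zbtb46, a transcription factor of dendritic cells, had 0, 0, 5.63 and 1.57 CPM in class II high cells, against 0.244, 0.294, 1.99 and 0.541 CPM in other gated cells, and it was too rare to be tested, as was Irf4. Irf8, another factor they use, did not differ by the test (366 ± 39.4 CPM in class II high cells and 360 ± 52.9 CPM in other gated cells, SD, n = 4, adjusted p = 0.934).

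Cells rich in dendritic cell genes were held apart by the gate. With at most 2 microglial UMIs, 44 and 96 cells in EAE ROS- replicates 1 and 2 carried 5 or more UMIs of its dendritic cell genes. No monocyte limit was set for them, and they held a median of 22.5 and 28.5 UMIs of the monocyte genes. The class II high cells of these libraries held 42 and 50. EAE ROS+ replicates held 3 and 8 such cells, too few to sum. The unscaled CPM below are given side by side, with no test. Fscn1, chosen after its value was seen, an actin-bundling protein of mature dendritic cells, was at 4.01 and 1.55 CPM in class II high cells of EAE ROS-, against 1029 and 409 CPM in the dendritic gene cells. Lyz2, lysozyme of monocytes and macrophages, was at 9326 and 8807 CPM in class II high cells, against 2035 and 3875 CPM in the dendritic gene cells. H2-Aa was at 11970 and 11330 CPM in class II high cells, against 9904 and 7909 CPM in the dendritic gene cells, the larger values being those of the class II high cells. For H2-DMb2 the order was the other way, with 212 and 85.4 CPM in class II high cells, against 297 and 331 CPM in the dendritic gene cells. So it was for Procr (100.3 and 112.5 against 268.7 and 180.9), Syngr2 (521.5 and 433.7 against 1515 and 1159) and Ifitm1 (2473 and 943.5 against 2820 and 2001). Ciita (48.6 and 41.9 against 52.35 and 52.1) and Itgax (59.7 and 75.3 against 66.3 and 66.8) lay close. Ccl5 was as high in the dendritic gene cells, at 5165 and 5442 CPM, against 5452 and 4319 CPM in class II high cells. Spink2 was at 63.7 and 41.1 CPM in class II high cells, against 17.45 and 8.15 CPM in the dendritic gene cells. Hspa5 (381 and 859 against 255 and 345) and H2-DMb1 (1140 and 1083 against 729 and 837.5) were larger in class II high cells.

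Klrb1b and Il1r2 were rarer but had the largest differences among the named higher genes, and their highest values were in class II high cells of EAE ROS-. Klrb1b, a lectin receptor of the NKR-P1 family, was at 12.2, 18.2, 116 and 45.6 CPM in class II high cells, against 7.001, 5.002, 22.6 and 12.8 CPM in other gated cells (3.56-fold, adjusted p = 1.86e-05). Il1r2, a decoy receptor for interleukin 1, was at 12.8, 23.5, 115 and 65.3 CPM in class II high cells, against 9.20, 16.4, 25.0 and 18.2 CPM in other gated cells (2.96-fold, adjusted p = 0.000261). In unscaled CPM the dendritic gene cells of EAE ROS- had 126 and 81.5 for Klrb1b, and 136 and 152 for Il1r2. When every cell with a UMI of the gate's dendritic cell genes was left out, both genes were still called.

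Genes of circulating monocytes were lower in class II high cells. Of 24 such genes outside the gate 22 were tested, and 11 were lower, 1 higher (Ly6i, a relative of Ly6c2 named after its value was seen) and 10 not called, with a median log2 difference of -0.36. Chi3l3, the secreted lectin Ym1, was at 489, 547, 58.3 and 190 CPM in class II high cells, against 646, 1151, 159 and 497 CPM in other gated cells (0.497-fold, adjusted p = 0.00011). F13a1, the A chain of coagulation factor XIII, was at 81.8, 96.4, 25.1 and 31.5 CPM in class II high cells, against 134, 136, 54.4 and 79.7 CPM in other gated cells (0.544-fold, adjusted p = 0.00027). Both were lower in 4 of 4 libraries, and among class II high cells their values were largest in the EAE ROS+ libraries. Lyz2 averaged 11490 ± 3369 CPM in class II high cells and 14510 ± 3273 CPM in other gated cells (SD, n = 4), and the smaller difference of 0.784-fold was found in all 4 libraries (adjusted p = 0.000918).

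Lrg1, a secreted glycoprotein that is high in blood monocytes and neutrophils, was at 8.50, 23.5, 3.07 and 7.08 CPM in class II high cells, against 20.4, 111, 3.97 and 26.1 CPM in other gated cells (0.324-fold, adjusted p = 0.000272). Lrg1 was lower in 4 of 4 libraries. It was not called against the other gated cells above the median score alone, where its log2 difference was -0.62, compared with -1.62 against all of them. Ifitm6, an interferon-induced protein of monocytes, behaved likewise (-1.17 against all, adjusted p = 0.0145, and -0.14 against those above the median). Ifitm6 was not called without EAE ROS+ replicate 1 (-1.02) or EAE ROS- replicate 2 (-1.08), and it was at -2.06 without EAE ROS- replicate 1. 1100001G20Rik, a gene of unnamed function in the files, was at 9.03, 5.21, 0.512 and 2.36 CPM in class II high cells, against 27.7, 95.9, 3.18 and 19.1 CPM in other gated cells, and its log2 difference of -2.39 ranged from -3.49, without EAE ROS+ replicate 1, to -1.43 over 18 alternatives.

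**Figure D3:**
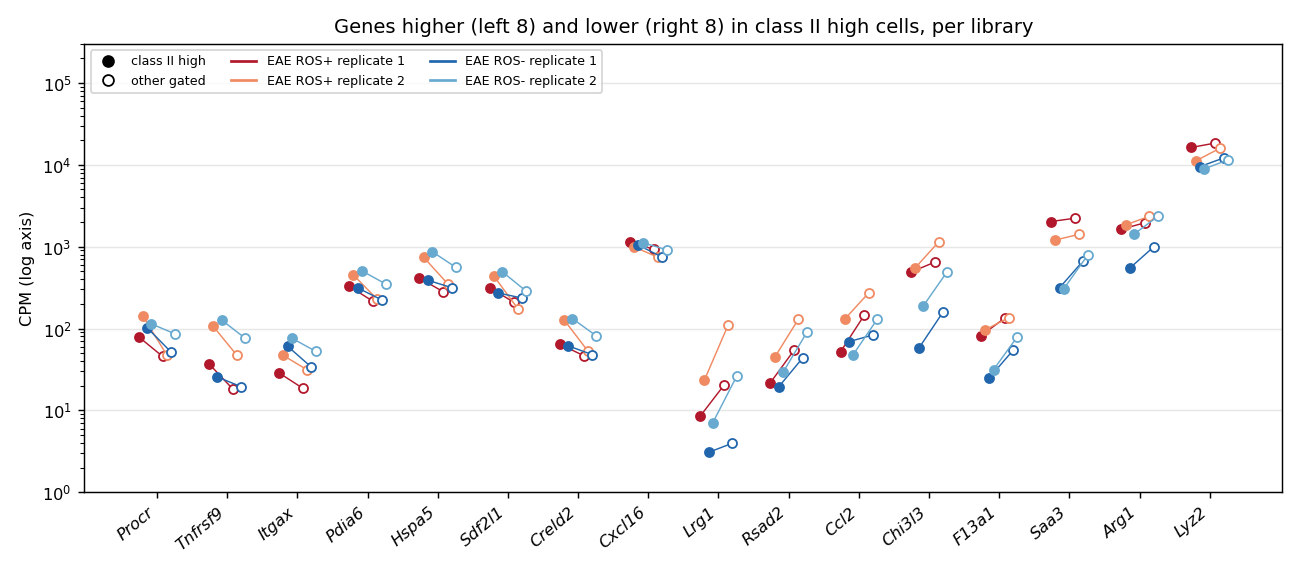
CPM (log axis) of 8 genes higher and 8 genes lower in class II high cells (filled) than in other gated cells (open), with a line per EAE library. In the left 8 genes every line falls from filled to open and in the right 8 every line climbs, while the colours show that the libraries also differ in level, as for Saa3 and Chi3l3.

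Genes for the alarmins S100a8 and S100a9, which neutrophils carry in large amounts and blood monocytes in smaller ones, were lower as well, and this depended on few cells. S100a8 was at 183, 169, 43.5 and 61.4 CPM in class II high cells, against 552, 926, 78.3 and 160 CPM in other gated cells (0.329-fold, log2 -1.60, adjusted p = 3.3e-06). S100a9 was at 31.9, 44.3, 0.512 and 0 CPM in class II high cells, against 224, 425, 0.397 and 0.721 CPM in other gated cells (log2 -2.92, adjusted p = 2.52e-09). S100a9 was thus nearly absent from both EAE ROS- libraries and the call rests on the EAE ROS+ ones. Only 3 class II high cells, against 74 other gated cells, held 3 or more UMIs of the neutrophil genes S100a9, Ngp, Camp, Retnlg and Ltf. Without such cells the log2 difference of S100a9 was 0.21 and not called, and that of S100a8 was -0.65 and still called. Against other gated cells above the median score, S100a9 was at 0.49 and not called, and S100a8 was at -0.45 and still called.

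Of 20 tested genes of the type I interferon response 3 were lower, 0 higher and 17 not called, with a median log2 difference of -0.16. Rsad2, the antiviral enzyme viperin, was at 21.8, 44.3, 19.5 and 29.1 CPM in class II high cells, against 54.7, 130.5, 43.7 and 90.0 CPM in other gated cells, lower in 4 of 4 libraries at 0.375-fold (log2 -1.42 ± 0.12, adjusted p = 1.95e-06). Its neighbour Cmpk2, a mitochondrial nucleotide kinase, and Ifit2, an RNA-binding protein, were lower with log2 differences of -1.48 (adjusted p = 0.0158) and -0.60 (adjusted p = 0.0374). Neither was called without EAE ROS- replicate 2 (-1.15 and -0.52). With EAE ROS+ replicate 1 left out, Ifit2 was not called (-0.65) and Cmpk2 was at -2.12.

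Of 24 tested genes of the interferon gamma response, the cytokine that is known to induce Ciita, 2 were higher, 1 lower and 21 not called, with a median of 0.03. Ly6a, which encodes the surface protein Sca-1, was at 1305, 1532, 1734 and 1343 CPM in class II high cells, against 1083, 988, 1215 and 1181 CPM in other gated cells (1.31-fold, adjusted p = 0.00449). The groups of values did not overlap. Cxcl10, a chemokine for T cells, was at 270, 675, 379 and 221 CPM in class II high cells, against 389, 1030, 390 and 488 CPM in other gated cells (0.676-fold, adjusted p = 0.0123). Cxcl10 was not called without EAE ROS+ replicate 1 (log2 -0.60) or EAE ROS- replicate 2 (-0.40), and it was at -0.01 against other gated cells above the median score. The other called gene, AW112010, a transcript induced by interferon gamma, was 1.19-fold higher (adjusted p = 0.0306) and lost its call in 13 of 18 alternatives, among them those without EAE ROS+ replicate 1 (log2 0.19), EAE ROS- replicate 1 (0.23) or EAE ROS- replicate 2 (0.29).

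Chemokines other than Ccl5 were on the whole not higher. Of 9 tested, 3 were lower, 1 higher and 5 not called, with a median log2 difference of -0.33. Ccl2, the ligand of Ccr2 that draws monocytes, was at 52.1, 130, 69.1 and 48.0 CPM in class II high cells, against 147, 273, 83.4 and 129 CPM in other gated cells (0.477-fold, adjusted p = 0.000303). Ccl2 was lower in 4 of 4 libraries, and its log2 difference of -1.07 was -0.51 and not called against other gated cells above the median score. Ccl4, a chemokine that T and NK cells make as well, was lower in 3 of 4 libraries (log2 -0.67, adjusted p = 0.0236), and was at -0.19 and not called once cells with a T or NK cell UMI were left out. Ccl6 was lower in 4 of 4 (log2 -0.33, adjusted p = 0.0258). Without EAE ROS- replicate 2 neither was called (-0.73 for Ccl4 and -0.25 for Ccl6), nor Ccl4 without EAE ROS- replicate 1 (-0.37) or Ccl6 without EAE ROS+ replicate 1 (-0.38). Cxcl16, a membrane-bound chemokine for activated T cells, was at 1130, 993, 1043 and 1121 CPM in class II high cells, against 932, 742, 745 and 917 CPM in other gated cells (1.29-fold, adjusted p = 0.00275). Without EAE ROS- replicate 2 Cxcl16 was not called (log2 0.38).

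Few genes of the macrophage lists were called, and those few were lower. Arg1, arginase 1, was at 1634, 1847, 546 and 1422 CPM in class II high cells, against 1966, 2352, 994 and 2341 CPM in other gated cells (0.684-fold, adjusted p = 0.000918), and it was the 1 called gene of 12 in the arginase list. Saa3, an acute-phase serum amyloid, was at 2031, 1206, 315 and 306 CPM in class II high cells, against 2229, 1419, 677 and 785 CPM in other gated cells (0.623-fold, adjusted p = 0.015). Both were lower in 4 of 4 libraries, Saa3 by little in EAE ROS+ and by more in EAE ROS-. Without EAE ROS- replicate 2 neither was called (log2 -0.50 for Arg1 and -0.49 for Saa3), and DESeq2 did not call Saa3.

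Of 24 tested tissue macrophage genes 4 were lower, 0 higher and 20 not called, with a median of -0.14. Gpnmb, a glycoprotein of lipid-laden phagocytes, was at 197, 67.8, 63.5 and 67.6 CPM in class II high cells, against 250, 137, 132 and 133 CPM in other gated cells (0.601-fold, adjusted p = 0.000999). Fabp5, a fatty acid carrier, the protease Ctsd and the apolipoprotein Apoc2 were the others, at log2 -0.76, -0.28 and -0.30 (adjusted p = 0.00279, 0.0202 and 0.0374). None of the 4 was called without EAE ROS- replicate 2, with log2 differences of -0.69, -0.60, -0.25 and -0.30. Without EAE ROS+ replicate 1 the last 3 were not called (-0.74, -0.30 and -0.35), and without EAE ROS- replicate 1 Ctsd and Apoc2 were not (-0.27 and -0.23). Apoe was at 18060, 14050, 7839 and 4574 CPM in class II high cells, against 17580, 6149, 10390 and 4963 CPM in other gated cells (adjusted p = 0.778). C1qa and Ms4a7 were not called either, with adjusted p of 0.195 and 0.945.

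The inflammatory list was nearly even, with 1 gene higher, 1 lower and 13 not called of 15 tested. Il1b, the cytokine interleukin 1 beta, was at 2820, 3315, 2885 and 3569 CPM in class II high cells, against 2257, 3096, 2031 and 3159 CPM in other gated cells (1.21-fold, adjusted p = 0.0317), and it lost its call in 9 of 18 alternatives, among them those without EAE ROS+ replicate 1 (log2 0.24), EAE ROS- replicate 1 (0.20) or EAE ROS- replicate 2 (0.30). Il18, a cytokine of the same family, was the lower one (log2 -0.77, adjusted p = 0.0403). It was not called without EAE ROS+ replicate 2 (-0.62) or without replicate 1 (-0.70) or 2 (-0.81) of EAE ROS-. Nos2, the inducible nitric oxide synthase, was not called (122 ± 51.1 CPM in class II high cells and 136.5 ± 74.8 CPM in other gated cells, SD, n = 4, adjusted p = 0.583). The study sorted cells by ROS, and none of the 7 tested NADPH oxidase genes was called between class II high and other gated cells by edgeR, where 1 had an unadjusted p under 0.05, or by DESeq2. Cybb, the catalytic subunit of that enzyme, was at 982, 625, 742 and 757 CPM in class II high cells, against 898, 731, 728 and 793 CPM in other gated cells, a log2 difference of -0.02 ± 0.07 (adjusted p = 0.962). Of 21 tested genes for glutathione and ROS scavenging 1 was lower, the glutathione transferase Mgst1 (0.774-fold, adjusted p = 0.0331), which lost its call in 6 of 18 alternatives, among them those without EAE ROS- replicate 1 (log2 -0.32) or EAE ROS- replicate 2 (-0.29).

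No glycolysis gene of 15, ribosomal protein gene of 20 or cell cycle gene of 7 was called by edgeR or DESeq2, with medians of 0.07, -0.07 and -0.11. In edgeR 3, 1 and 2 of them had an unadjusted p under 0.05. Mki67, present in dividing cells, was at 12.8 ± 2.33 CPM in class II high cells and 10.6 ± 1.67 CPM in other gated cells (SD, n = 4, adjusted p = 0.778). Of 14 immediate-early and heat shock genes, which tissue dissociation can induce, 1 was lower, Nr4a1 (log2 -0.41, adjusted p = 0.0495), and 13 were not called. Nr4a1 was not called without EAE ROS+ replicate 1 (-0.44), EAE ROS- replicate 1 (-0.32) or EAE ROS- replicate 2 (-0.47). Itgam, which encodes CD11b, was lower (log2 -0.38, adjusted p = 0.0133) and was not called without EAE ROS- replicate 2 (-0.36). Of 7 coagulation and fibrinolysis genes Procr was higher, F13a1 and Thbs1 (log2 -0.46, adjusted p = 0.0217) were lower and 4 were not called. Thbs1, which encodes thrombospondin, was not called without EAE ROS+ replicate 1 (-0.58), EAE ROS- replicate 1 (-0.37) or EAE ROS- replicate 2 (-0.51).

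Markers of other cell types outside the gate gave few calls. Of 9 microglial markers 6 were tested and none was called by edgeR, where 1 had an unadjusted p under 0.05, or by DESeq2, and their summed level ran from 696 to 1117 CPM in class II high cells and from 461 to 1082 CPM in other gated cells. Of 16 T and NK cell markers 1, Il7r, was tested and not called. The 16 summed to 71.7 to 120 CPM in class II high cells, most of it Il7r, and to 45.1 to 580 CPM in other gated cells. For 10 B cell markers the sums were 9.44 to 22.01 CPM in class II high cells and 5.95 to 30.6 CPM in other gated cells, with 7 at 0 in all class II high sums. Neutrophil markers summed to 91.6 to 287 CPM in class II high cells and to 124 to 1703 CPM in other gated cells, with 2 of 3 tested lower, S100a8 and S100a9. The 7 plasmacytoid dendritic cell markers summed to 44.3 to 75.2 CPM in class II high cells and to 40.7 to 61.6 CPM in other gated cells, with 0 of 2 tested called. Endothelial, astrocyte and oligodendrocyte markers summed to 44.5 to 66.9 CPM in class II high cells and to 39.4 to 51.4 CPM in other gated cells, with 0 of 3 tested called, and of 2 tested progenitor markers 1 was lower, Sox4 (log2 -0.96, adjusted p = 0.0481), which was not called without EAE ROS+ replicate 1 (-0.58) or EAE ROS- replicate 2 (-1.05). The part these traces play in the results was not tested beyond the exclusions of cells with dendritic, T, NK or neutrophil UMIs given here.

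**Figure D4:**
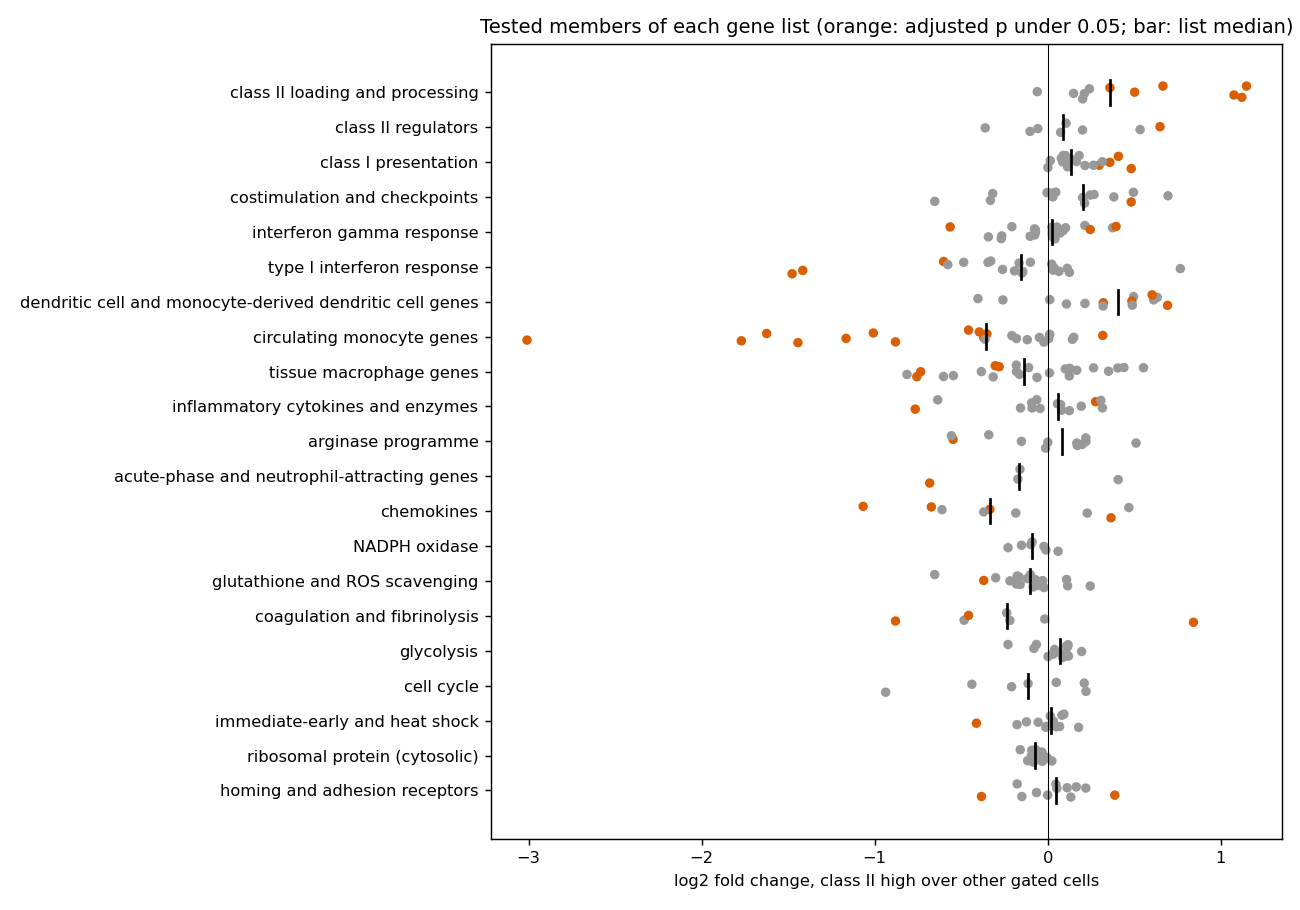
Log2 fold change of class II high over other gated cells for each tested member of 21 gene lists, in orange where the adjusted p was under 0.05, with a bar at the median of each list. The class II loading list lies mostly right of 0 with a median of 0.36 and the circulating monocyte list reaches farthest left with a median of -0.36, while NADPH oxidase, glycolysis, cell cycle and ribosomal protein genes have medians of -0.09, 0.07, -0.11 and -0.07 and no orange point.

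Within the class II high cells, the ROS gates were then compared with each other, 223 and 61 EAE ROS+ cells against 271 and 193 EAE ROS- cells. Of 8094 genes tested 15 (0.185%) were called, 7 higher (0.0865%) and 8 lower (0.0988%) in EAE ROS+, with a median log2 difference over all genes of -0.02. The scored genes had similar levels, which the shared threshold brings about. As a description, H2-Aa stood at 11420 and 10630 CPM in EAE ROS+, against 12150 and 11380 CPM in EAE ROS- class II high cells. With 2 libraries a group and few members in EAE ROS+ replicate 2 this fit varied: leaving out 1 library at a time, in the order given above, gave counts of 34, 103, 61 and 155, and the count was 2 with the top 10% of gated cells as members.

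Saa3, Spp1, F13a1 and S100a8 were higher in EAE ROS+ class II high cells. Saa3 was at 1988 and 1179 CPM in EAE ROS+, against 313 and 303 CPM in EAE ROS- (5.16-fold, edgeR adjusted p = 0.00364). Spp1, osteopontin, a secreted protein of activated macrophages, was at 433 and 713 CPM in EAE ROS+, against 120 and 145 CPM in EAE ROS- (4.28-fold, edgeR adjusted p = 0.00815). F13a1 was at 80.1 and 94.2 CPM in EAE ROS+, against 24.9 and 31.2 CPM in EAE ROS- (3.06-fold, edgeR adjusted p = 0.0272). The libraries of one gate lay wholly above those of the other for each of them, which the choice of named genes in this comparison required. S100a8 was 3.37-fold higher (edgeR adjusted p = 0.0103), C5ar1, the receptor for the complement fragment C5a, 2.44-fold (0.0329) and Ms4a7, a membrane protein of tissue macrophages, 2.81-fold (0.0463). S100a9 was the remaining one, with 60 and 17 UMIs in EAE ROS+, against 1 and 0 UMIs in EAE ROS- (edgeR adjusted p = 0.00237). S100a9 was not called without cells with 3 or more neutrophil UMIs (edgeR adjusted p = 0.0543). With the top 10% of gated cells as members all of these genes but Spp1 lost their calls, and with the top 15% taken within each library Spp1 (log2 1.87), C5ar1 (1.28) and Ms4a7 (1.26) did. Ms4a7 was also not called without the tenth of cells with most UMIs (1.40), with cells thinned to 2000 UMIs (1.57), or without cells with T or NK cell UMIs (1.46) or with neutrophil UMIs (1.55).

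Among the lower genes were the receptors that also set class II high cells apart from other gated cells. Klrb1b was at 11.95 and 17.8 CPM in EAE ROS+, against 116 and 45.2 CPM in EAE ROS- class II high cells (0.163-fold, edgeR adjusted p = 0.0463). Il1r2 was at 12.5 and 22.9 CPM in EAE ROS+, against 114 and 64.7 CPM in EAE ROS- (0.166-fold, edgeR adjusted p = 0.0138). Ccnd2, a cyclin of the G1 phase, was at 36.9 and 53.5 CPM in EAE ROS+, against 168 and 143 CPM in EAE ROS- (0.269-fold, edgeR adjusted p = 0.0103). Cd81, a tetraspanin listed here among the microglial markers, was 0.269-fold (edgeR adjusted p = 0.0463). Each of these 4 lost its call under some alternatives. Leaving out 1 library leaves a single library in 1 gate, so a call kept there is no support. Klrb1b and Il1r2 were not called with the top 10% as members (log2 -2.43 and -2.62) or with the top 15% within each library (-2.77 and -2.69), nor was Cd81 with the top 10% (-1.88) or Ccnd2 with the top 15% within each library (-1.55). Klrb1b and Cd81 were also not called with cells thinned to 2000 UMIs (-2.35 and -1.77), without the tenth of cells with most UMIs (-2.62 and -1.90), without cells with T or NK cell UMIs (-2.55 and -1.92) or without those with neutrophil UMIs (-2.55 and -1.84). With 1 library left out the fold moved by over 1.5 times for Klrb1b (log2 -1.73 without EAE ROS- replicate 1, -2.62 with all), Cd81 (-1.26 without it, -1.90 with all) and Il1r2 (-1.96 without EAE ROS+ replicate 1, -2.59 with all). H2-Ob, Ramp3 and Ffar2, named after their values were seen, and the gate gene Ccl17, which is given with no test, were the others. H2-Ob was not called without EAE ROS+ replicate 1 (log2 -3.18) or EAE ROS- replicate 1 (-2.45), with DESeq2 (-2.98) or under 6 other choices of cells. Of 6 microglial markers tested between the gates Cd81 was lower, 0 were higher and 5 were not called. Of the microglial gate genes, Sparc was at 3.64 and 2.55 CPM in EAE ROS+, against 51.4 and 17.2 CPM in EAE ROS-. Siglech was also lower, and P2ry12 and Olfml3 overlapped. Cells with 10 or more microglial UMIs and at most 2 UMIs of the monocyte genes numbered 2 and 0 in EAE ROS+. In EAE ROS- they numbered 180 and 92. Cells with more of both were not counted here. Their part was not tested.

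Of the dendritic list 16 genes were tested between the gates, and 0 were higher, 15 not called and 1 lower, Ffar2, a receptor for short-chain fatty acids (edgeR adjusted p = 0.042), with a median log2 difference of -0.62. DESeq2 called 0 of the 16. Ramp3, a receptor partner protein, had 0 and 0 CPM in EAE ROS+, against 20.9 and 17.2 CPM in EAE ROS- class II high cells, and in unscaled CPM it was at 363 and 279 in the dendritic gene cells of EAE ROS-. With all cells that held a UMI of the gate's dendritic cell genes left out, 10 genes were called, 9 of them among the 15, and Ccnd2 (log2 -1.41), Cd81 (-1.87), Ms4a7 (1.44) and H2-Ob (-2.85) were among those no longer called. H2-DMb2 was at 30.2 and 48.4 CPM in EAE ROS+, against 215 and 85.8 CPM in EAE ROS-, and was not called (edgeR adjusted p = 0.073). None of the 7 NADPH oxidase genes was called by edgeR, where 0 had an unadjusted p under 0.05, or by DESeq2: Cybb was at 961 and 611 CPM in EAE ROS+, against 738 and 751 CPM in EAE ROS- class II high cells (adjusted p = 1.0).

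The difference between the ROS gates was itself compared between class II high and other gated cells, and 3 of 9386 genes (0.032%) were called, 2 with a larger (0.0213%) and 1 with a smaller (0.0107%) ROS+ over ROS- difference in class II high cells. Spp1 was at 438 and 713 CPM in class II high and at 500 and 413 CPM in other gated cells of EAE ROS+, whereas in EAE ROS- it was at 120 and 147 CPM in class II high and at 360 and 398 CPM in other gated cells. The ROS+ over ROS- difference was larger in class II high cells by 1.76 ± 0.21 (SE) on the log2 scale (edgeR adjusted p = 0.000505). Other gated cells thus had similar Spp1 levels in all 4 libraries, and the class II high cells lay below them in both EAE ROS- libraries.

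Saa3 was at 2010 and 1178 CPM in class II high and at 2218 and 1430 CPM in other gated cells of EAE ROS+. In EAE ROS- it was at 314 and 307 CPM in class II high and at 681 and 788 CPM in other gated cells. The difference was larger in class II high cells by 1.03 ± 0.13 (edgeR adjusted p = 0.000505), and most of it lay in EAE ROS-, where both class II high values were below both other values. Ifitm1 went the other way, with 451 and 428 CPM in class II high and 330 and 464 CPM in other gated cells of EAE ROS+. In EAE ROS- it was at 2518 and 960 CPM in class II high and at 1216 and 448 CPM in other gated cells, a difference of -0.86 ± 0.15 (edgeR adjusted p = 0.0362). Ifitm1 was not called without EAE ROS+ replicate 2 (log2 -0.62) or with DESeq2.

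**Figure D5:**
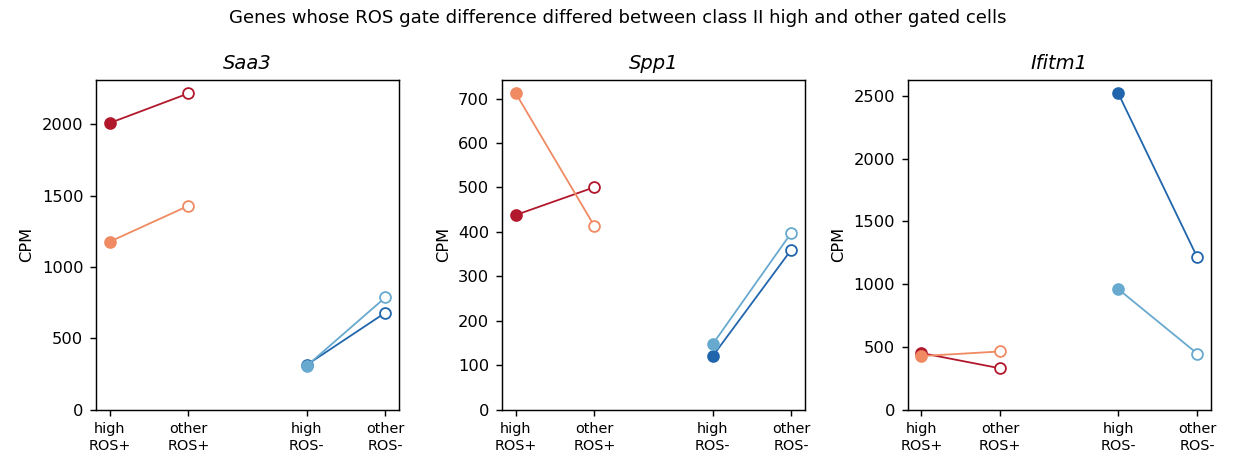
CPM of Saa3, Spp1 and Ifitm1 in class II high cells (filled) and other gated cells (open) of each EAE library, EAE ROS+ on the left and EAE ROS- on the right of each panel, with a line per library. Saa3 and Spp1 are lowest in class II high cells of EAE ROS-, and Ifitm1 reaches its highest value, 2518 CPM, there.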

How the data were processed

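The authors deposited, for each library, 10x Chromium UMI counts per gene and cell as a sparse matrix with its gene and barcode lists. Per the submitters' processing notes, Cell Ranger 2.0.1, Seurat 3, R 3.4.2 and mm10 were used, with no role given, and aligner settings and annotation were not given in the sources used here. In all, the files list 9079 barcodes over 6 libraries, where the series' design text states 8701 cells, and 9078 passed a filter of 200 genes or more with mitochondrial UMIs no higher than 10%. Of 38293 gene IDs, 36345 were in the names table used. The members, the 28 lists of 426 genes and the tests were chosen with earlier results of these data known.

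Counts were summed per library over class II high and over other gated cells and tested in edgeR 4.0.16 (R 4.3.3, limma 3.58.1) with filterByExpr at a minimum count of 10, TMM scaling, the quasi-likelihood test and Benjamini-Hochberg adjustment. The library was a block in the first comparison and in the difference of differences, and the EAE ROS+ against EAE ROS- comparison had none. Residual degrees of freedom were 3, 2 and 2 and the common biological coefficient of variation 0.0713, 0.17 and 0.0723, in the order class II high against other gated cells, EAE ROS+ against EAE ROS-, and the difference of both. Standard errors were the size of the log2 difference over the square root of F. Named were up to 10 genes per direction, 6 for the other comparisons, with the largest difference among called genes with mean log2 CPM of at least 5 and every library on the same side, up to 4 genes per list by smallest p, and a fixed set of class II, myeloid and enzyme genes. Some results are not reported here. Alternatives used DESeq2 1.42.0, other filters, thresholds and cell exclusions, and each library left out. Tables and figures used Python 3.11.15, numpy 2.4.6, pandas 2.3.3, scipy 1.17.1 and matplotlib 3.10.9, and the fits were tested on simulated data. Library totals ran from 11909166 to 23407825 UMIs in EAE. Shares have exact intervals, which cover counting error only.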

Additional observations from a re-analysis of the deposited data

Results flagged for a closer look

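For 3 genes the EAE ROS+ over EAE ROS- difference differed between class II high and other gated cells by the edgeR test of that difference. The difference was 1.76 for Spp1 and 1.03 for Saa3 on the log2 scale, both with a larger EAE ROS+ over EAE ROS- difference in class II high cells. For Ifitm1 it was -0.86, with a more negative difference in class II high cells. The cause was not tested. No labelled group had 4 samples, so no sample could be checked as far from the others of its group.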

How the results depend on the processing

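Class II high against other gated cells gave 138 calls, which became 267 with no filter on low counts (77 higher, 190 lower), 74 with DESeq2, 67 with members chosen and measured on separate parts of the UMIs, 39 to 215 with 1 library left out, and 0 without the library block, where 340 genes had an unadjusted p under 0.05. The other alternatives gave 93 to 158. S100a9 reversed to 0.49 against other gated cells above the median score and to 0.21 without cells with 3 or more neutrophil UMIs. EAE ROS+ against EAE ROS- class II high cells gave 15 calls, which became 97 with no filter, 2 with the top 10%, 31 with the top 20%, 7 with the top 15% within each library, 23 on separate parts of the UMIs, 9 without cells with neutrophil UMIs, and 34 to 155 with 1 library left out. The difference of differences gave 3 calls, which became 15 with no filter and 2 to 82 with 1 library left out. The cause of these shifts was not tested. Alternatives that left out cells with T, NK or neutrophil UMIs or compared members with the upper-scoring cells were chosen after seeing the data.

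Replicate numbers were not taken to pair the libraries: same-numbered libraries deviated together at r = 0.132 over 8094 genes, with 2 pairs. With a replicate block 40 genes were called between the ROS gates, and with it in place of the library block 0 were called for the difference of differences, where 255 had an unadjusted p under 0.05. EAE ROS+ replicate 2, with 61 members, limits the precision of its sums.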
